A study of Mus musculus with 18 samples.

Results

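Fibroblast growth factor (FGF) signalling was followed through 10 genes in sorted mouse skin epithelium: the ligands Fgf1 and Fgf18, the FGF-binding protein Fgfbp1, the receptors Fgfr1, Fgfr2 and Fgfr3, and the feedback inhibitors Spry1, Spry2, Spry4 and Dusp6. The members were all probe sets on the array with 1 of these gene symbols and no other, which gave 21 of 45101 probe sets, and 17 of the 21 passed the filter on low signals. All 10 genes were among the 11569 genes tested, of 18193 with a probe set of their own. The mice carried K5tTA (FvB) and pTRE-H2B-GFP (CD1), so a keratin 5 promoter drove a nuclear H2B-GFP label in skin epithelium until doxycycline food at 1 g per kg shut it off, and each later division diluted it. Doxycycline ran from postnatal day (PD) 18 to PD21 or from PD22 to PD25, in all groups. At each age 3 fractions were sorted from each of 3 mice on CD34, α6-integrin and GFP. These were non-bulge cells, undivided bulge cells (0 divisions in the chase) and divided bulge cells (1 to 2 divisions), which made 6 groups of 3 arrays. The bulge is the hair follicle stem cell niche. The label reports divisions only in cells in which the keratin 5 promoter had been active, and the labels do not say which cell types the non-bulge fraction held.

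FGFs are secreted or cell-retained ligands that bind tyrosine kinase receptors together with heparan sulfate, and the receptors signal largely through RAS and the ERK kinases. Active ERK raises its own inhibitors, among them the Sprouty proteins, which act between receptor and RAS, and the phosphatase Dusp6, which removes phosphate from ERK. In hair follicles Fgf18 is known as a product of resting bulge cells that holds the cycle in telogen, and Fgfr2 as the epithelial receptor for ligands of the dermal papilla.

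Values are log2(signal + 16) of the deposited array signals. Differences carry the standard error of a limma fit to all 18 arrays, with 3 mice per group, and a gene is said to rise or fall where its Benjamini-Hochberg adjusted p over 11569 genes was under 0.05. On this scale the fold of a dim gene comes out too small. Each mouse gave all 3 of its fractions, and an alternative fit took the mouse as a block. All shares of all genes below are of the main fit. Counts called under another fit stand without such a share, so a higher count there need not be particular to FGF genes. The arrays formed 2 sets of 9, told apart by their untrimmed mean signal (set A 811 to 869, set B 667 to 731), each holding all 3 fractions of its mice. Set A held 2 PD21 mice and 1 PD25 mouse, and set B held 1 PD21 mouse and 2 PD25 mice. Cd34, the surface marker used in the sort, had a mean of 4.52 ± 0.73 (SD, n = 3) in the non-bulge arrays of PD21, of 8.93 ± 0.92 in the divided ones and of 12.73 ± 0.36 in the undivided ones, and in that order of 4.97 ± 0.75, 12.06 ± 0.71 and 12.39 ± 0.13 at PD25. Krt14, of basal keratinocytes, was at 14.09 to 14.58 in the 6 group means, while Ly6d, of the same 5-gene list of basal markers, was at 12.59 in non-bulge and 10.65 in undivided cells at PD21 and at 12.75 and 9.35 at PD25. All 5 were above the array median on all arrays. Their summed signal overlapped, at 49012 to 86552 in non-bulge and 47431 to 105170 in undivided cells at PD21. At PD25 it was 61454 to 110460 and 49724 to 82903. As each array holds RNA from many sorted cells, fewer cells of a type and less RNA per cell cannot be told apart.

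Genes of some other cell types moved with the fractions. Summed endothelial and differentiated epidermis markers overlapped between all fractions at each age, and summed immune markers did so at PD21. At PD25 immune markers summed to 662 to 834 in divided cells, above 253 to 541 in non-bulge and 250 to 596 in undivided cells. The isthmus and infundibulum markers summed to 5286 to 6749 in undivided cells at PD25, below 9300 to 11600 in non-bulge cells. The summed signal of 7 dermal fibroblast and papilla markers was 287 to 562 in non-bulge, 814 to 1812 in divided and 2210 to 3305 in undivided cells at PD21, and 333 to 666, 1912 to 3931 and 1244 to 2195 at PD25. In undivided cells at PD21 5 of the 7 were below the array median on all arrays: the collagens Col1a2 and Col3a1, and Pdgfra, Lum and Dcn. Col1a1, the defining gene chosen for this list, and Col6a1 were above it on all arrays. In divided cells at PD25 Col1a2 and Col3a1 were above it as well, and Pdgfra and Lum were below it on all 18 arrays. The 6 melanocyte markers summed to 599 to 845 in non-bulge, 481 to 1200 in divided and 1086 to 3875 in undivided cells at PD21, and to 243 to 605, 1128 to 1970 and 1085 to 1278 at PD25. The 4 measured sebaceous gland markers summed to 17795 to 24894 in non-bulge, 13860 to 21956 in divided and 6832 to 10638 in undivided cells at PD21, and to 12706 to 17244, 8577 to 11187 and 11807 to 13207 at PD25. Undivided cells were thus below non-bulge cells at PD21 and divided cells were below them at PD25. Divided cells at PD21 and undivided cells at PD25 overlapped non-bulge cells. The 6 proliferation markers summed to 16198 to 19989 in non-bulge, 18133 to 19558 in divided and 8088 to 16971 in undivided cells at PD21. At PD25 they summed to 15230 to 18792, 13001 to 25031 and 21389 to 29755 in that order, so undivided cells were above all non-bulge arrays. The part of these markers in the results below was not tested.

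In undivided bulge cells the ligand Fgf1, its receptor Fgfr1 and the feedback gene Spry1 were higher than in non-bulge cells at both ages, and Fgfbp1 was lower. At PD21 5 of the 10 members differed, 4 higher and 1 lower, against 11.0% of all genes tested, and the members' median difference was 1.04 against -0.05 over all genes. At PD25 it was 4 members, 3 higher and 1 lower, against 10.5% of all genes, with a median of 0.84 against -0.02. Divided bulge cells at PD21 gave no call among the members against non-bulge cells: limma called 0 of 10, with 3 at an unadjusted p under 0.05 and 0.182% of all genes called. At PD25 divided bulge cells had 4 called members, 3 higher and 1 lower, against 8.87% of all genes, with a median of 0.65 against -0.02. The members were chosen with earlier results of these data known, so these counts describe them and are no test of the family.

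**Figure D1:**
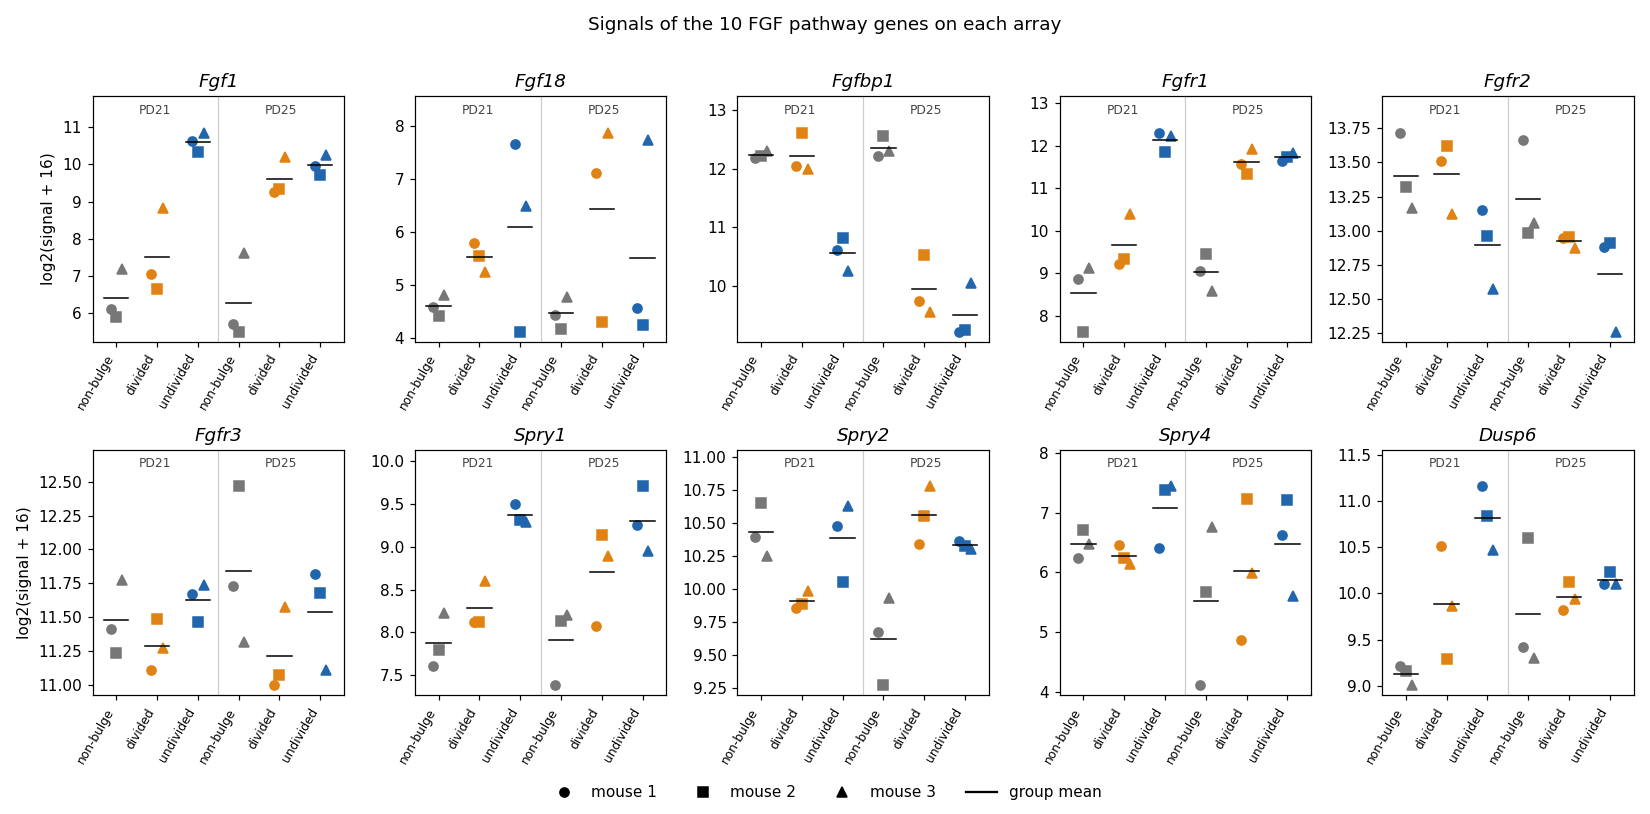
Each panel shows 1 gene, with log2(signal + 16) on the vertical axis and the 6 groups on the horizontal axis; points are single arrays, shaped by mouse, and bars are group means of 3 mice. Fgf1 and Fgfr1 sit high in undivided bulge at both ages and in divided bulge at PD25 (group means of 9.60 and 11.62), and lower in divided bulge at PD21 (7.50 and 9.66), while Fgfbp1 shows the opposite pattern.

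Fgf1, an FGF without a classical secretion signal that can bind all FGF receptors, gave 6.09, 5.88 and 7.18 in the non-bulge cells of the 3 mice at PD21, 7.04, 6.63 and 8.82 in divided bulge cells, and 10.62, 10.33 and 10.86 in undivided bulge cells. The undivided arrays lay apart from both others, while divided and non-bulge arrays overlapped. At PD25 the arrays read 5.69, 5.49 and 7.61 in non-bulge, 9.26, 9.35 and 10.19 in divided and 9.96, 9.71 and 10.26 in undivided bulge cells. Here both bulge fractions lay above non-bulge cells and overlapped each other. Undivided bulge cells exceeded non-bulge cells by 4.22 ± 0.56 at PD21 (18.6-fold, adjusted p = 9.97e-06) and by 3.71 ± 0.56 at PD25 (13.1-fold, adjusted p = 4.71e-05), higher in 3 of 3 mice each time. The divided fraction exceeded non-bulge cells by 3.34 ± 0.56 at PD25 (adjusted p = 2.37e-04) and by 1.11 ± 0.56 at PD21 (adjusted p = 1.00).

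Fgf18 was dim: its probe set exceeded the array median on 4 of 18 arrays, all of bulge cells. At PD21 it read 4.58, 4.41 and 4.81 in non-bulge, 5.79, 5.54 and 5.24 in divided and 7.66, 4.11 and 6.48 in undivided cells, and at PD25 4.43, 4.17 and 4.76, then 7.11, 4.29 and 7.87, then 4.56, 4.23 and 7.73. Single mice within the undivided and PD25 divided groups thus ran from the level of non-bulge cells to several log2 units above it, with SDs of 1.81 to 1.93. No comparison called Fgf18, and the largest difference was 1.97 ± 0.91 for divided against non-bulge cells at PD25 (adjusted p = 0.244). Without the PD25 divided array of mouse 2 that difference was 3.04 ± 0.91 and passed (adjusted p = 0.0414). The array left out was the low one of its group, at 4.29, and Fgf18 passed the filter only through bulge arrays. That pass is therefore no support for a difference.

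Fgfbp1, a secreted carrier that frees FGFs from heparan sulfate in the matrix, ran against Fgf1 and Fgfr1. At PD21 it read 12.18, 12.22 and 12.31 in non-bulge cells, 12.05, 12.62 and 11.99 in divided and 10.61, 10.82 and 10.26 in undivided bulge cells. At PD25 non-bulge cells read 12.22, 12.56 and 12.31, divided cells 9.75, 10.52 and 9.55, and undivided cells 9.22, 9.24 and 10.05. Divided bulge cells thus shared the range of non-bulge cells at PD21 and that of undivided cells at PD25. Fgfbp1 fell in undivided against non-bulge cells, with differences of -1.68 ± 0.27 at PD21 (adjusted p = 9.99e-05) and -2.86 ± 0.27 at PD25 (adjusted p = 8.35e-08). In divided against non-bulge cells the difference was -0.01 ± 0.27 at PD21 (adjusted p = 1.00) and -2.42 ± 0.27 at PD25 (adjusted p = 1.31e-06).

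Among the receptors, Fgfr1 rose in bulge cells. Its arrays read 8.86, 7.63 and 9.12 in non-bulge, 9.22, 9.34 and 10.40 in divided and 12.31, 11.85 and 12.23 in undivided cells at PD21, and 9.04, 9.44 and 8.59, then 11.58, 11.34 and 11.93, then 11.65, 11.74 and 11.83 at PD25. Undivided cells lay above the other PD21 arrays by more than a log2 unit, and both bulge fractions lay apart from non-bulge cells at PD25. The difference of undivided from non-bulge cells was 3.59 ± 0.34 at PD21 (12.1-fold, adjusted p = 8.61e-08) and 2.72 ± 0.34 at PD25 (6.57-fold, adjusted p = 3.99e-06). Divided cells were higher than non-bulge cells by 2.59 ± 0.34 at PD25 (adjusted p = 1.20e-05). At PD21 they differed by 1.12 ± 0.34, without overlap and in 3 of 3 mice, but did not pass (unadjusted p = 0.0032, adjusted p = 0.436).

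Fgfr2 was bright in every fraction, at 12.26 to 13.72, and none of its differences passed in the fit by group. It read 13.72, 13.32 and 13.16 in non-bulge, 13.51, 13.62 and 13.12 in divided and 13.15, 12.96 and 12.58 in undivided cells at PD21, where all undivided arrays lay below the lowest non-bulge array. Undivided cells differed from non-bulge cells by -0.50 ± 0.27 at PD21 (adjusted p = 0.285) and by -0.55 ± 0.27 at PD25 (adjusted p = 0.255). With the mouse as a block both passed as lower (adjusted p = 0.0318 and 0.0196), with the sign the same in 3 of 3 mice at each age. Fgfr3, the other epithelial receptor measured, ranged from 10.99 to 12.47 with overlapping groups. Its largest difference was -0.62 ± 0.27 for divided against non-bulge cells at PD25 (adjusted p = 0.192), and no fit of all arrays called it.

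**Figure D2:**
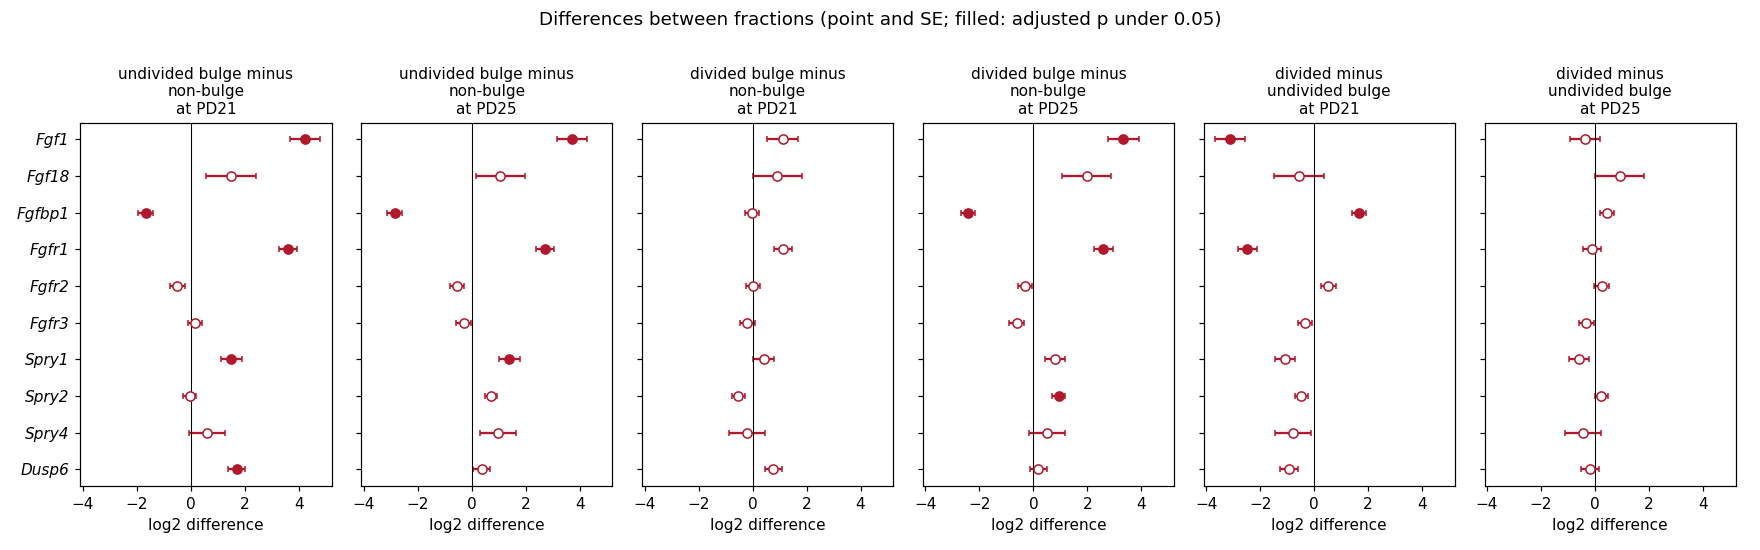
Each panel shows 1 comparison of sorted fractions; the horizontal axis is the difference on the log2(signal + 16) scale, bars are standard errors of the limma fit with 3 mice per group, and filled points had an adjusted p under 0.05. The calls of Fgf1, Fgfr1 and Fgfbp1 appear in undivided against non-bulge cells at both ages, in divided against non-bulge cells at PD25 and in divided against undivided cells at PD21, and the panel of divided against undivided cells at PD25 has none.

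Of the feedback inhibitors, Spry1 rose in undivided against non-bulge cells at both ages and Dusp6 at PD21. Spry1 read 7.61, 7.79 and 8.22 in non-bulge, 8.12, 8.13 and 8.60 in divided and 9.50, 9.31 and 9.29 in undivided cells at PD21, with the undivided arrays apart from the rest. At PD25 it read 7.38, 8.13 and 8.21, then 8.08, 9.14 and 8.89, then 9.26, 9.71 and 8.95, so divided cells overlapped both other fractions. Undivided cells exceeded non-bulge cells by 1.49 ± 0.38 at PD21 (adjusted p = 0.00984) and by 1.40 ± 0.38 at PD25 (adjusted p = 0.0167). Single arrays decided these calls. Without the PD21 non-bulge array of mouse 1 the first was 1.36 ± 0.43 (adjusted p = 0.0511), and without the PD25 non-bulge array of mouse 1 or the PD25 undivided array of mouse 2 the second was 1.13 ± 0.41 (adjusted p = 0.104) or 1.19 ± 0.44 (adjusted p = 0.109).

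Dusp6 read 9.21, 9.16 and 9.01 in non-bulge, 10.52, 9.29 and 9.86 in divided and 11.16, 10.83 and 10.47 in undivided cells at PD21. At PD25 it read 9.42, 10.60 and 9.30, then 9.82, 10.12 and 9.94, then 10.11, 10.23 and 10.10. The PD21 undivided and non-bulge arrays lay apart, while at PD25 the non-bulge array of mouse 2 was the highest of all 9. The difference of undivided from non-bulge cells was 1.70 ± 0.32 at PD21 (adjusted p = 6.50e-04) and 0.37 ± 0.32 at PD25 (adjusted p = 0.627). The change of that difference with age was -1.32 ± 0.45 and did not pass (unadjusted p = 0.00769, adjusted p = 1.00), so a loss of the Dusp6 difference with age was not shown.

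Spry2 followed another course. On its brighter probe set it read 10.39, 10.65 and 10.25 in non-bulge, 9.86, 9.88 and 9.98 in divided and 10.48, 10.05 and 10.63 in undivided cells at PD21. At PD25 non-bulge cells read 9.67, 9.27 and 9.93, divided cells 10.34, 10.55 and 10.78 and undivided cells 10.37, 10.32 and 10.30. Divided cells were thus the lowest fraction at PD21, and at PD25 both bulge fractions lay above non-bulge cells. Spry2 rose in divided against non-bulge cells at PD25, by 0.94 ± 0.24 (adjusted p = 0.0105), and not at PD21 (-0.52 ± 0.24, adjusted p = 1.00). Undivided cells differed from non-bulge cells by 0.71 ± 0.24 at PD25 (adjusted p = 0.0563), which passed at 0.86 without the non-bulge array of mouse 3 (adjusted p = 0.0388). The PD25 call of divided against non-bulge cells was lost without the non-bulge array of mouse 2 (0.76 ± 0.25, adjusted p = 0.0687) or the divided array of mouse 3 (0.82 ± 0.26, adjusted p = 0.0683). It was also lost when limma was fitted to only the groups compared (adjusted p = 0.0638). Spry4 was dim, above the array median on 8 of 18 arrays, with values from 4.10 to 7.44 and overlapping groups. It was called in no comparison, and 3 further Spry4 probe sets never exceeded the median.

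The upstream sequences of 3 members that were called against non-bulge cells are shown for their base composition, as 250 bases before the RefSeq gene start on the coding strand (GRCm38.p6). Spry1 and Dusp6 rose in undivided cells and Fgfbp1 fell. Capitals mark the ETS core CGGAAG on either strand, a letter pattern of the ETS factors that ERK activates.
Spry1, chr3:37639697-37639946, plus strand: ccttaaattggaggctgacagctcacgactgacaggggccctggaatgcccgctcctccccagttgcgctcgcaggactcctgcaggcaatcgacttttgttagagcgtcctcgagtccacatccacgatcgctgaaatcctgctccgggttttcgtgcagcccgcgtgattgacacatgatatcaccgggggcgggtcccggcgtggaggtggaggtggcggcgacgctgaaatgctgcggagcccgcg
Dusp6, chr10:99262981-99263230, plus strand: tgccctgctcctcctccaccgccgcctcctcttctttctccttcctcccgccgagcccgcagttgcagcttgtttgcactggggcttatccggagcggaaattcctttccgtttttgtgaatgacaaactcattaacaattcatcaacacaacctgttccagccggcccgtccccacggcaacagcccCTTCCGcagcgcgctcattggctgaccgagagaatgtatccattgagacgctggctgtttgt
Fgfbp1, chr5:43981800-43982049, minus strand: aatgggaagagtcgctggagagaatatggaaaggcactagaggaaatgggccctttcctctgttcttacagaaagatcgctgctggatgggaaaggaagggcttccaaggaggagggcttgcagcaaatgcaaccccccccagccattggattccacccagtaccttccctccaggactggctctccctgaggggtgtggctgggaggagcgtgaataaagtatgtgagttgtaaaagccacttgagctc
The Spry1 and Dusp6 windows hold 23 and 16 CG dinucleotides and 62.4% and 56.4% G and C, and the Fgfbp1 window holds 3 and 53.6%, against medians of 6 and 52.4% over 32851 mouse windows. The window of Spry2, called as higher in divided cells at PD25, holds 23 and 62.4%. Among members without a call in the main fit, Fgf18 holds 37 and 77.2% and Fgfr2 holds 2 and 44.0%. The Fgfr3 windows hold 19 and 24, with 66.8% and 72.8%. A link of base composition to direction was not tested. Windows of 7 of the 10 members were searched. In those windows CGGAAG occurred once, in the Dusp6 window on the minus strand, while 13.6% of all windows hold it. The AP-1 letters TGANTCA (6.75% of all windows), the RUNX core TGTGGT (14.0%) and the TATA box TATAAA (12.4%), searched on both strands and not overlapping the ETS core, had no match in the members' windows.

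Where a gene had several probe sets, they bore on how firmly its difference can be read. Fgfr1 had 3, and all rose in undivided against non-bulge cells at both ages and were lower in divided than undivided cells at PD21. The dimmest of them was not called for the age difference in divided cells (1.46 ± 0.55, adjusted p = 0.132) or for the change with age of divided against undivided cells (1.95 ± 0.77, adjusted p = 0.280), and the other 2 were. For divided against non-bulge cells at PD21 none of the 3 Fgfr1 probe sets was called. The second brightest gave 1.57 ± 0.33 there (adjusted p = 0.0525), and the dimmest 0.62 ± 0.55. Those of Fgf1 were split: a second probe set rose with the one used for the gene, by 3.88 ± 0.66 at PD21 and 2.67 ± 0.66 at PD25, and a dim further one, above the median on 3 arrays, was not called. For Fgfr2 the less bright probe set did pass when each probe set was tested on its own, with undivided cells lower than non-bulge cells by -0.95 ± 0.24 at PD21 (adjusted p = 0.00991) and -0.84 ± 0.24 at PD25 (adjusted p = 0.0244). It also passed for divided against undivided cells at PD21 (0.83 ± 0.24, adjusted p = 0.0343) and for PD25 against PD21 in divided cells (-0.80 ± 0.24, adjusted p = 0.0472). The 2 Spry2 probe sets disagreed. The dimmer one gave 0.00 ± 0.56 for divided against non-bulge cells at PD25 (adjusted p = 1.00), and with the mean of both probe sets the Spry2 call was lost (0.47 ± 0.33, adjusted p = 0.515). The 2 Fgfr3 probe sets were both uncalled.

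**Figure D3:**
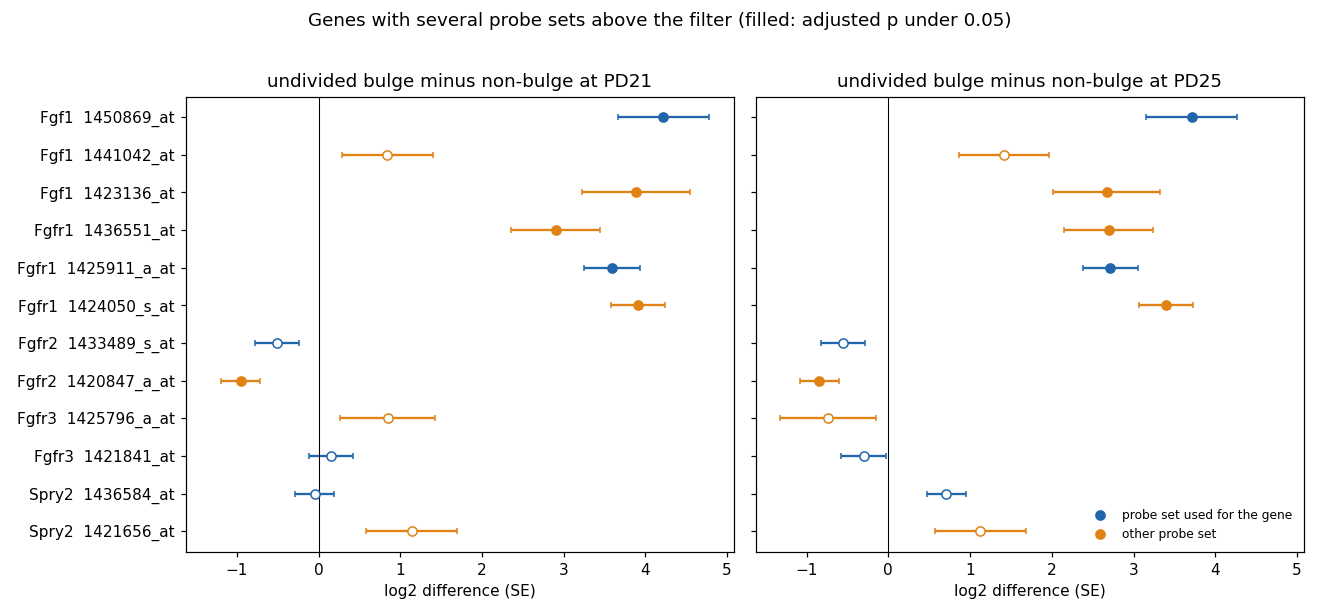
Each row is 1 probe set that passed the filter, for the genes with more than 1, and the horizontal axis is the difference of undivided from non-bulge cells on the log2(signal + 16) scale at PD21 (left) and PD25 (right), with standard errors; filled points had an adjusted p under 0.05. All 3 Fgfr1 probe sets lie to the right of 0, both Fgfr2 probe sets to the left, and the dimmer Spry2 probe set is at 1.14 at PD21 where the brighter one is at -0.04.

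The 2 bulge fractions differed in these genes at PD21 and not detectably at PD25. At PD21 3 members were called between divided and undivided cells, 1 higher and 2 lower in divided cells, against 8.28% of all genes, with a median of -0.68 against 0.07. Divided cells were lower in Fgf1 by -3.11 ± 0.56 (adjusted p = 6.84e-04) and in Fgfr1 by -2.47 ± 0.34 (adjusted p = 4.30e-05), and higher in Fgfbp1 by 1.66 ± 0.27 (adjusted p = 2.28e-04), each in 3 of 3 mice. The mouse block raised the count to 6, adding Spry1 at -1.08 (adjusted p = 0.0393), Dusp6 at -0.93 (adjusted p = 0.0312) and Fgfr2 at 0.52 (adjusted p = 0.0314), which were at adjusted p = 0.0858, 0.0768 and 0.295 without it. Dusp6 also passed at -1.25 without the PD21 divided array of mouse 1 (adjusted p = 0.0289), and without the PD25 non-bulge array of mouse 2 (adjusted p = 0.0363). At PD25 limma called 0 of 10 members and 0% of all genes, with 0 members and 635 genes at an unadjusted p under 0.05. The 95% interval of the PD25 difference ran from -0.82 to 0.58 for Fgfr1, from -1.54 to 0.79 for Fgf1 and from -0.12 to 0.99 for Fgfbp1.

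Mice varied in where divided cells lay between the other fractions. On the linear signal scale, with non-bulge cells at 0% and undivided cells at 100%, divided cells of mice 1, 2 and 3 at PD21 were at 4.20%, 3.26% and 17.9% for Fgf1 and at 2.88%, 12.9% and 18.8% for Fgfr1. Spry1 was at 15.9%, 14.0% and 27.4%, Dusp6 at 51.5%, 4.36% and 46.1%, and Fgfbp1 at 12.7%, -51.0% and 25.8%, where a negative value lies beyond non-bulge cells. The sort gene Cd34 stood at 6.37%, 4.14% and 12.1% in the same cells, nearer to non-bulge cells on this scale, while on the log2 scale it was nearer to undivided cells in mice 1 and 3. At PD25 the positions were 59.3%, 76.5% and 94.96% for Fgf1, 94.7%, 69.6% and 108.5% for Fgfr1, 93.7%, 84.0% and 107.8% for Fgfbp1 and 58.8%, 61.9% and 136.1% for Cd34. Spry1 was then at 23.3%, 51.1% and 91.3%, with mouse 1 still near non-bulge cells, and Dusp6 at 53.1%, 125% and 74.1%. In mouse 2 the Dusp6 scale ran the other way than in mice 1 and 3. There the signal was 1531.2 in non-bulge, 1185 in undivided and 1098.5 in divided cells, so 125% marks the lowest fraction. The Dusp6 difference that sets this scale was not called at PD25. The part of the Cd34 levels in the results was not tested.

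With age, divided bulge cells changed in 3 members, 2 higher and 1 lower at PD25, against 7.84% of all genes, with a median of 0.25 against 0.00. Fgf1 rose by 2.10 ± 0.56 (adjusted p = 0.02), Fgfr1 rose by 1.96 ± 0.34 (adjusted p = 5.57e-04) and Fgfbp1 fell by 2.28 ± 0.27 (adjusted p = 1.07e-05). The Fgf1 call was lost without the PD21 divided array of mouse 1 (1.87, adjusted p = 0.103) or mouse 2 (1.67, adjusted p = 0.1399) or the PD25 divided array of mouse 3 (1.80, adjusted p = 0.121). Undivided cells had 0 calls among the members by limma, with 2 at an unadjusted p under 0.05, against 0.0951% of all genes. Those were Fgfbp1, at -1.06 ± 0.27 with no overlap between the ages (adjusted p = 0.131), and Dusp6, at -0.68 ± 0.32 (adjusted p = 0.615). Non-bulge cells had 0 as well, with 1 at an unadjusted p under 0.05, against 0.0432% of all genes. That was Spry2, at -0.81 ± 0.24 (adjusted p = 0.855).

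Tests of the difference between the ages named 3 genes. For divided against non-bulge cells 2 members passed, 1 in each direction, against 1.63% of all genes: Fgfbp1 at -2.41 ± 0.38 (adjusted p = 0.00213) and Spry2 at 1.46 ± 0.33 (adjusted p = 0.0261). The Spry2 call was lost without any 1 of 6 arrays, which left 1.28 to 1.48 at adjusted p = 0.0541 to 0.0751: the PD21 non-bulge and divided arrays of mice 1 and 2, the PD25 non-bulge array of mouse 2 and the PD25 divided array of mouse 3. With the mouse block the count was 4, with Fgf1 at 2.22 (adjusted p = 0.0274) and Fgfr1 at 1.48 (adjusted p = 0.0416) added, which were at adjusted p = 0.197 and 0.138 without it. Without the PD21 divided array of mouse 3 the count was also 4, with Fgf1 at 2.88 (adjusted p = 0.0416) and Fgfr1 at 1.85 (adjusted p = 0.0337), and Fgfr1 passed at 1.93 without the PD21 non-bulge array of mouse 2 (adjusted p = 0.0231).

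For divided against undivided cells Fgfr1 passed, at 2.35 ± 0.48 (adjusted p = 0.0130), 1 of 10 members against 1.18% of all genes. Fgf1 was at 2.73 ± 0.79 (adjusted p = 0.0842) and Fgfbp1 at -1.22 ± 0.38 (adjusted p = 0.110). Both passed with the mouse block (adjusted p = 0.00719 and 0.0490), which made 3. Fgf1 also passed at 3.39 without the PD21 divided array of mouse 3 (adjusted p = 0.0157), and Fgfbp1 at -1.52 without the PD25 divided array of mouse 2 (adjusted p = 0.0310). For undivided against non-bulge cells limma called 0 members and 0% of all genes, with 3 members and 446 genes at an unadjusted p under 0.05. The 3 fraction comparisons of an age share arrays, as do these tests of them.

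The array sets were also fitted apart. Undivided against non-bulge cells at PD21 gave 4.49 in set A and 3.68 in set B for Fgf1, 3.83 and 3.11 for Fgfr1 and -1.49 and -2.05 for Fgfbp1, and the set A and set B fits called 5 and 3 members. At PD25 they were 4.27 and 3.43, 2.60 and 2.77, and -3.0 and -2.79, with 3 members called in each set. Divided against undivided cells at PD21 gave -3.64 and -2.04 for Fgf1, -2.80 and -1.82 for Fgfr1 and 1.62 and 1.74 for Fgfbp1. Set B, with 1 PD21 mouse, called 0 members there and set A called 3. The rise of Fgf1 with age in divided cells was 2.42 in set A and 0.95 in set B, called in neither (adjusted p = 0.0594 and 0.770). Each of these age tests has 1 array on one side, set A at PD25 and set B at PD21, and takes that side's spread from the other groups.

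The list of other FGF pathway genes, drawn up by role, held 95 genes, of which 62 were tested. Against non-bulge cells, undivided cells had 11 of 62 higher and 0 lower at PD21, and 5 higher and 3 lower at PD25. Divided cells had 0 calls at PD21 and 6 higher and 2 lower at PD25, and divided cells at PD21 had 11 lower and 0 higher than undivided cells. The median differences over the 62 genes lay between -0.10 and 0.06 in these 5 comparisons, against -0.05 to 0.07 over all genes. The called shares were 17.7% at PD21 and 12.9% at PD25 for undivided cells, against 11.0% and 10.5% of all genes, 12.9% against 8.87% for divided cells at PD25, and 17.7% against 8.28% between the bulge fractions at PD21, differences that were not tested. With the mouse block the PD25 counts were 19 for undivided and 15 for divided cells, and that between the bulge fractions at PD21 was 17. The shares above do not apply to these counts, and the share of all genes with the block is not given here. Without the PD21 divided array of mouse 1 the count between the bulge fractions fell to 2, without the PD21 undivided array of mouse 1 that of undivided against non-bulge cells at PD21 fell to 6, and without the PD25 undivided array of mouse 2 the PD25 one fell to 4. Without the PD25 divided array of mouse 1 the count of divided against non-bulge cells at PD25 fell to 5.

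Of 20 other ligands 4 were tested (Fgf4, Fgf9, Fgf11 and Fgf22), none of them called in any comparison, and the remaining 16, among them the dermal ligands Fgf7 and Fgf10, were below the filter. Of the 14 tested receptors and co-receptors 4 rose in undivided against non-bulge cells at PD21, 28.6% against 11.0% of all genes, which was not tested. The glypican Gpc6, a heparan sulfate carrier of the cell surface, read 4.32, 4.63 and 5.33 in non-bulge, 4.20, 6.48 and 8.43 in divided and 10.08, 9.29 and 10.41 in undivided cells. It rose by 5.17 ± 0.80 in undivided cells (adjusted p = 6.96e-05), with the divided arrays spread between both other fractions. The syndecan Sdc2, also such a carrier, rose by 2.26 ± 0.51, the FGFR-associated membrane protein Flrt3 by 1.5 ± 0.31, and Fgfrl1, a receptor without a kinase domain, by 2.40 ± 0.76. Of 8 tested heparan sulfate enzymes the chain polymerase Ext1 (1.01 ± 0.23) and the sulfotransferase Hs2st1 (0.91 ± 0.27) rose in the same comparison, 25% of the list. The 16 tested adaptors and kinases between receptor and ERK, Grb2, Sos1 and Braf among them, had no call in any comparison. With the mouse block Flrt3 (adjusted p = 0.00636), Fgfrl1 (adjusted p = 0.0353) and Hs2st1 (adjusted p = 0.0297) also passed as higher in undivided cells at PD25, and Flrt3 (adjusted p = 0.00797) and Hs2st1 (adjusted p = 0.0231) in divided cells at PD25.

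Feedback genes beyond the members went both ways. The membrane inhibitor Il17rd read 8.72, 7.97 and 7.99 in non-bulge and 10.65, 10.60 and 10.45 in undivided cells at PD21, without overlap, and rose by 2.34 ± 0.38 (adjusted p = 1.33e-04). Spred1, which holds back RAS, rose by 0.86 ± 0.23, while its relative Spred2 was at -0.41 ± 0.25 (adjusted p = 0.365) and fell by 0.97 ± 0.25 at PD25. The ERK phosphatase Dusp5 fell in divided against non-bulge cells at PD25, by 1.84 ± 0.55 (adjusted p = 0.0363). Of 12 tested ERK targets Phlda1, Etv5 and Ier3 rose in undivided cells at PD21, by 3.38 ± 0.29, 1.42 ± 0.37 and 1.16 ± 0.31. That was 25% against 11.0% of all genes, with a list median of 0.07 against -0.05. At PD25 1 target was higher and 2 were lower in undivided cells, 25% against 10.5% of all genes, with a median of -0.24 against -0.02. These differences in share were not tested. Fos, an immediate early gene, fell at PD25 in both bulge fractions against non-bulge cells, with differences of -2.03 ± 0.51 in undivided and -2.17 ± 0.51 in divided cells. The mouse block added calls against non-bulge cells at PD25: in undivided cells Spred1 at 0.69 (adjusted p = 0.0365), Dusp5 at -1.65 (adjusted p = 0.0372) and Etv5 at 1.03 (adjusted p = 0.0450), and in divided cells Spred2 at -0.79 (adjusted p = 0.0301). It also added the change with age of Il17rd between the bulge fractions, at 1.99 (adjusted p = 0.00944), and of Fos in divided against non-bulge cells, at -2.49 (adjusted p = 0.0346).

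**Figure D4:**
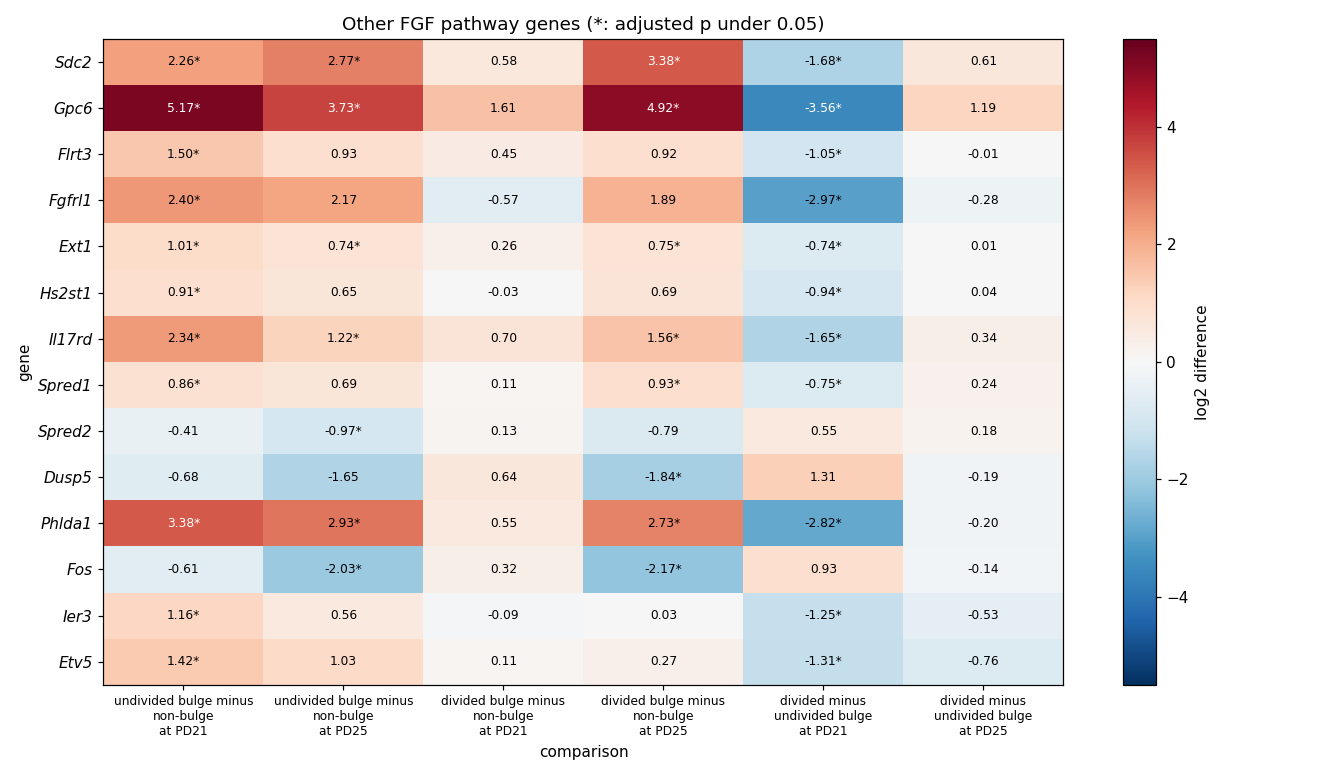
Rows are the 14 other pathway genes named by the rule (at most 4 called genes per list), columns are the 6 comparisons of fractions, and each cell gives the difference on the log2(signal + 16) scale, coloured from blue (lower) to red (higher), with a star where the adjusted p was under 0.05. The column of divided against non-bulge cells at PD21 and that of divided against undivided cells at PD25 hold no star, and Phlda1, Gpc6, Sdc2, Il17rd and Ext1 are starred in the other 4.

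Phlda1, an early target of growth factor signalling, had the lowest adjusted p of the named pathway genes in undivided against non-bulge cells at PD21. It read 8.93, 8.88 and 8.38 in non-bulge, 9.37, 8.63 and 9.85 in divided and 12.18, 12.26 and 11.88 in undivided cells at PD21, and 9.03, 9.42 and 8.98, then 12.28, 11.46 and 11.89, then 12.33, 12.18 and 11.72 at PD25. Divided cells thus overlapped non-bulge cells at PD21 and undivided cells at PD25. The change with age of the difference between divided and undivided cells was 2.62 ± 0.41 for Phlda1 (adjusted p = 0.00419), beside 2.35 for Fgfr1.

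Over the 18 arrays the genes whose values correlated best with Fgfr1 were Ift57, Dkk3 and Klhl22 (Pearson r of 0.98, 0.97 and 0.97), and those nearest to Fgfbp1 were Wnk2, Ly6d and Tnfrsf19 (0.97, 0.97 and 0.96). For Dusp6 they were Cltb, Pak4 and Cdk11b (0.90, 0.87 and 0.84), for Fgf18 Tmbim6, Upb1 and Sqstm1 (0.82, 0.79 and 0.78) and for Fgfr3 Atg101, Pigu and Cpne1 (0.71, 0.70 and 0.69). The arrays share mice and fractions, so these values describe likeness over the 6 groups and carry no test.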

How the data were processed

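The authors' deposited values were intensity signals of Affymetrix mouse probe sets, made with GCOS (version not given in the sources used here) per the submitters' processing notes, from 5 ng of RNA amplified before labelling, per the labels' protocols. Every array had a 2% trimmed mean of 500, so no further scaling was done. The 3' to 5' signal ratio of the Gapdh control probe sets ran from 3.10 to 11.6 over the arrays, and that of actin from 0.91 to 1.23. In mouse 3 at PD21 the Gapdh ratio was 8.77 in non-bulge, 9.67 in divided and 3.21 in undivided cells. The part of these ratios in the results was not tested. Probe sets with 1 gene symbol (34945 of 45101) were kept when above their array's median on at least 3 of 18 arrays, and the brightest stood for its gene. The group means were fitted to log2(signal + 16) with limma 3.58.1 (lmFit, and eBayes with a trend) in R 4.3.3, checked on simulated data. The mouse numbers name 1 animal per number and age in the titles, so they pair the fractions; deviations of same-mouse arrays from their group means correlated at 0.075 to 0.46. Per list, at most 4 called pathway genes were named. Fgf18, a member, was left out of the bulge markers. The members and lists were chosen with earlier results of these data known. Sequences are RefSeq's.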

Additional observations from a re-analysis of the deposited data

Results flagged for a closer look

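In 3 genes differences changed with age by a test of the change itself. Fgfbp1 was lower in divided than in non-bulge cells at PD25 and level with them at PD21, and the change of that difference was -2.41 ± 0.38 (limma adjusted p = 0.00213). Spry2 changed by 1.46 ± 0.33 in the same comparison (limma adjusted p = 0.0261), on 1 of its 2 probe sets. The Fgfr1 difference between divided and undivided bulge cells changed by 2.35 ± 0.48 (limma adjusted p = 0.0130), from -2.47 at PD21 to -0.12 at PD25, and passed on 2 of its 3 probe sets.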

How the results depend on the processing

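Of 22 called member values, 9 were called under all 13 alternative settings and 17 in all 18 fits that left out 1 array; of 98 uncalled values 11 were called and 33 changed sign somewhere. With array set B alone 3 members were called in undivided against non-bulge cells at PD21 and 0 in divided against undivided cells at PD21, in divided cells with age and in both changes with age. Divided against undivided cells at PD21 had 6 called members with the mouse as a block, and 5 with the mean of a gene's probe sets or the array set as a block. The change with age of divided against non-bulge cells had 1 called without the variance trend, with the mean of probe sets or in set A alone, 4 with the mouse block, and 1 to 4 without single arrays. That of divided against undivided cells had 2 called with a pseudocount of 64, quantile normalization, only the groups compared or the set block, 3 with the mouse block, 0 without the trend or in set A alone, and 1 to 2 without single arrays. In set A alone Fos was called at 2.07 (adjusted p = 0.0196) for divided against undivided cells at PD25, against an uncalled -0.14 over all arrays; there the comparison is of 1 array with 1, and the spread comes from the other groups. Without the trend Fgfr1 lost its change with age (adjusted p = 0.0608). Of the other pathway genes, undivided against non-bulge cells had 5 called at PD21 in set B alone, and at PD25 3 in set A alone, 5 without the filter, 14 with the mean of probe sets and 15 with the set block. Divided against non-bulge cells at PD25 had 2 in set A alone and 14 with the set block. Divided against undivided cells at PD21 had 4 in set A and 0 in set B alone, 5 without the trend and 17 with the set block, and divided cells with age had 1 in set B alone and 4 to 8 without single arrays. The share of all genes called under each setting is not given here, and the cause of these changes was not tested. The mouse block changed no other member call than those in the report. It was a fixed term for the fraction comparisons and their changes with age. For PD25 against PD21 within a fraction it was a consensus correlation of 0.23. With 3 mice per group the number of arrays limits the precision.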
